A study of Mus musculus with 12 samples.

Results

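The genes of epidermal ceramide and barrier lipid synthesis were followed in bulk RNA sequencing of mouse ear skin. The group holds 33 genes, listed by name for their place in the known pathway, out of 24532 genes in the table. The list was drawn up with earlier results of these data known. Mice were kept specific-pathogen free (SPF), with a microbiota, or germ free (GF), without one, and their ear skin received ethanol, the vehicle, or MC903. MC903 (calcipotriol), which acts on the vitamin D receptor, causes an inflammation of mouse skin that resembles atopic dermatitis. The 4 groups, SPF ethanol, SPF MC903, GF ethanol and GF MC903, held 3 libraries each. The strain was labelled C57BL/6 in 9 libraries and C57BL/7, C57BL/8 and C57BL/9 in GF MC903 4, GF ethanol 5 and GF MC903 5. The treatment label names 5 applications in a wording that does not settle the schedule. No label gave age or sex. Whether each library of a group is from its own mouse was not stated either, and the p-values cover only the spread of these libraries, which may be technical. The number in these 3 labels goes up by 1 with each sample in the order of deposit, as in a series filled in automatically, so they may not name different strains, and strain was not used in any comparison.

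The outermost layer of the epidermis keeps water in by means of sheets of ceramides, cholesterol and free fatty acids between dead, flattened keratinocytes. Serine palmitoyltransferase starts ceramide synthesis, ceramide synthases join the sphingoid base to fatty acids that elongases have lengthened, and the product is stored as glucosylceramide or sphingomyelin in lamellar bodies. After secretion, hydrolases release the ceramides, and omega-hydroxylated acylceramides are bound to the protein envelope of the cell. Loss of several of these genes causes ichthyosis in humans.

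Each library held between 36358294 and 48225425 estimated counts, and all 33 genes were among the 16466 that passed the filter on low counts. Levels are given as CPM, estimated counts relative to the scaled library total, after scaling of the libraries by edgeR's TMM method. The length trend is the trend of counts on gene length, removed per library in an alternative fit. In group lists, SPF values are in the order of libraries 1, 2 and 3 and GF values in the order 1, 4 and 5. Changes are log2 differences with their standard error (SE), and a gene was said to rise or fall where the adjusted p of edgeR's quasi-likelihood test was under 0.05. Mean TMM factors were 1.23 in SPF ethanol, 1.19 in GF ethanol and 0.83 in both MC903 groups. On library totals alone the median gene therefore shifted by -0.58 in the SPF response and -0.51 in the GF response, and directions below are relative to the TMM scaling unless the other scaling is named. In whole skin, fewer cells of a type and less RNA per cell cannot be told apart. Markers of basal keratinocytes, differentiated keratinocytes, sebocytes, fibroblasts and the other cell types listed for skin were above 0 in every group, and Flg was not in the table.

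Upstream sequences are shown for Degs2, which had the largest response, and for Kdsr and Abca12, whose responses differed between housings. The windows run from 250 to 51 bases before the RefSeq start (GRCm38.p6), all on the minus strand, at chr12:108702357-108702556 for Degs2, chr1:106759793-106759992 for Kdsr and chr1:71414961-71415160 for Abca12. Capitals mark GC boxes (GGGCGG or its reverse complement).
Degs2: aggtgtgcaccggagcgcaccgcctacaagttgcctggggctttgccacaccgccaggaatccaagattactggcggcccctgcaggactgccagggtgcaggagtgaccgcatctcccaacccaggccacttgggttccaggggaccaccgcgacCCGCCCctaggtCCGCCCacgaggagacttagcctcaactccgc
Kdsr: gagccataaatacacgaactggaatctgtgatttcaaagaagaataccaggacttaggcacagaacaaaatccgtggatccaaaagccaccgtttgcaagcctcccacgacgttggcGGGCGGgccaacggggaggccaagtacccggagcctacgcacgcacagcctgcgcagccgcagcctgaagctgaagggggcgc
Abca12: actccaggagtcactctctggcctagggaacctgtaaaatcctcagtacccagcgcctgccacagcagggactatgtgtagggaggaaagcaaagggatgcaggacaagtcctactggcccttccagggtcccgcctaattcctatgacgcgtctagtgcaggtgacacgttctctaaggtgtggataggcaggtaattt
RefSeq windows were found for 30 of the 33 genes and not for Asah1, Fa2h and Smpd3. On either strand, the GC box was present in 14 of 30 windows (46.7%) and in 24.5% of 27025 windows of all genes. The nuclear receptor half-site AGGTCA was present in 6 of 30 (20%) against 11.2% of all, GGTTCA in 2 of 30 (6.67%) against 7.31%, and AGTTCA in 2 of 30 (6.67%) against 10%. The vitamin D response element of the DR3 type, made of such half-sites with a spacer, had a match in 0 of 30 windows and in 0.17% of all. TGANTCA, the AP-1 motif, was present in 0 of 30 against 5.74%, and the TATAAA box in 0 of 30 against 9.48%. The E-box CACGTG was present in 1 of 30 (3.33%) against 4.35%, and CCAAT in 6 of 30 (20%) against 28.9%. The Degs2 window held GC boxes at bases 94 to 89 and 82 to 77 before the start and the Kdsr window 1 at bases 133 to 128. The Abca12 window held none of these motifs.

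MC903 moved the genes in both directions in both housings. In SPF skin 16 of 33 rose, where 35% of all tested genes did, and 12 fell, where 38.8% did. At least a 2-fold rise was found for 8 (15.6% of all genes) and at least a 2-fold fall for 5 (18.9%). In GF skin 17 rose (33.4% of all) and 11 fell (35.1%), with 5 at least 2-fold higher (12.2%) and 1 at least 2-fold lower (13.1%). The median log2 change of the 33 genes was 0.09 in SPF skin and 0.3 in GF skin, against -0.1 and -0.07 over all genes tested. On library totals the split was 11 higher and 18 lower in SPF skin, and 10 higher and 16 lower in GF skin. Of all 16466 genes tested, 3127 were then higher and 10106 lower in SPF skin, and 2795 higher and 9697 lower in GF skin. With TMM scaling, 15 genes rose in both housings and 8 fell in both. The share of all genes that did so was not counted. With TMM scaling no gene rose in one housing and fell in the other, but on library totals Sptssb fell in SPF skin (-1.07, adjusted p 0.0011) and rose in GF skin (1.19, adjusted p 0.00093). Abca12 rose and Sptssa, Kdsr, Psap and Acer1 fell in SPF skin without a call in GF skin. Sptssb and Elovl4 rose and Sptlc3, Cers2 and Asah1 fell in GF skin without a call in SPF skin. The difference between the responses, GF minus SPF, was not called for Elovl4 (0.33, adjusted p 0.14), Cers2 (-0.25, adjusted p 0.079) or Sptlc3 (-0.07, adjusted p 0.69).

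**Figure D1:**
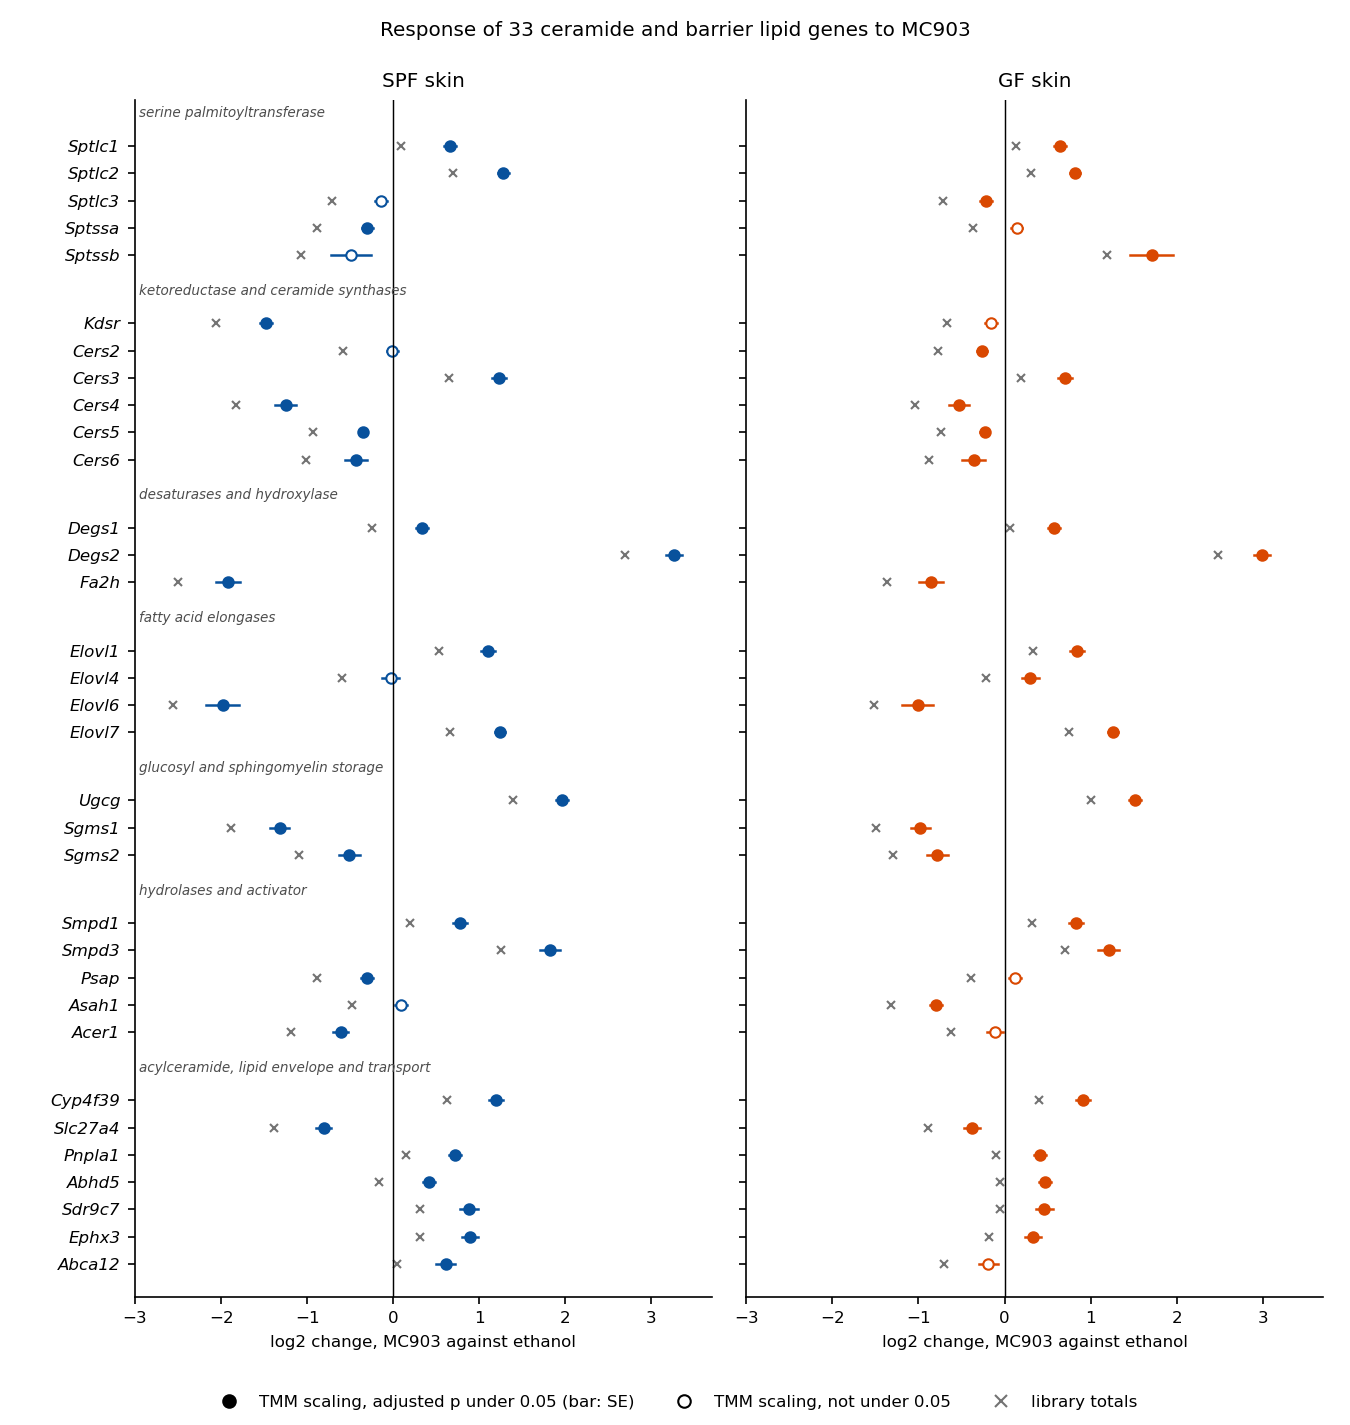
Log2 change with MC903 against ethanol for each of the 33 genes, by role, in SPF skin (left) and GF skin (right). Circles are TMM-scaled changes with their SE, filled where the adjusted p was under 0.05, and crosses are the changes on library totals. Degs2 stands farthest to the right in both panels, at 3.26 and 2.99, and Elovl6 farthest to the left, at -1.98 and -1.01.

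The response differed between the housings for 17 of 33 genes. The GF response was the higher one in 9 (7.75% of all genes tested) and the lower one in 8 (9.26% of all). The 9 were Sptssa, Sptssb, Kdsr, Cers4, Fa2h, Elovl6, Psap, Acer1 and Slc27a4, and the 8 were Sptlc2, Cers3, Ugcg, Smpd3, Asah1, Pnpla1, Ephx3 and Abca12. Of these 17, Sptlc2, Cers3, Ugcg, Smpd3, Pnpla1 and Ephx3 rose in both housings, by less in GF skin. Cers4, Fa2h, Elovl6 and Slc27a4 fell in both, by less in GF skin. The median difference, GF minus SPF, was 0.02 in the 33 genes and 0.02 over all genes. With a library left out, the GF response was the higher one in 7 to 9 genes and the lower one in 6 to 9. Pnpla1, Slc27a4, Smpd3 and Elovl6 each lost the call in at least 1 alternative run.

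Of the subunits of serine palmitoyltransferase, which joins serine to palmitoyl-CoA, Sptlc1 and Sptlc2 rose in both housings. Sptlc2, the catalytic subunit, was at 57.7, 58.2 and 55.7 CPM in SPF ethanol skin and at 131, 143 and 142 CPM with MC903. In GF skin Sptlc2 was at 57, 56.7 and 62.2 CPM with ethanol and at 103, 102 and 106 CPM with MC903. The treatments did not overlap in either housing, and with MC903 every SPF library was above every GF library. Sptlc2 rose by 1.28 (SE 0.06, adjusted p 1.9e-09) in SPF and 0.82 (SE 0.06, adjusted p 1.4e-07) in GF skin, a difference of -0.46 (SE 0.08, adjusted p 0.003). Sptlc1, the partner of both catalytic subunits, was between 91.7 and 109 CPM with ethanol and between 145 and 171 CPM with MC903 over both housings. Its rises of 0.66 in SPF and 0.64 in GF skin (SE 0.07 in both) came to 0.09 (adjusted p 0.22) and 0.13 (adjusted p 0.076) on library totals. Sptlc3, the alternative catalytic subunit found in skin, was between 46.9 and 55.6 CPM in SPF and between 40.9 and 51.7 CPM in GF libraries. It fell by 0.21 in GF skin (adjusted p 0.023), but without GF MC903 1, GF MC903 5, GF ethanol 1 or GF ethanol 4 the change was -0.21 to -0.16 with an adjusted p of 0.054 to 0.12. With the length trend removed it was not called either (adjusted p 0.095). Its SPF change was -0.14 (adjusted p 0.11), and it passed on library totals (-0.71) and without SPF MC903 3 (-0.2, adjusted p 0.029).

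The small subunits, which raise the activity of the enzyme and set which acyl chain it takes, moved apart by housing. Sptssb was singled out after its values were seen. It was at 9.76, 10 and 6.73 CPM in SPF ethanol skin and at 7.14, 6.38 and 5.3 CPM in SPF MC903 skin. In GF skin it was at 1.8, 1.44 and 1.76 CPM with ethanol and at 4.14, 7.75 and 4.44 CPM with MC903. The GF ethanol libraries were below every other library, and the SPF treatments overlapped. Sptssb rose by 1.71 (SE 0.25, adjusted p 6.4e-05) in GF skin, while its change in SPF skin was -0.49 (SE 0.23, adjusted p 0.071). The difference was 2.2 (SE 0.34, adjusted p 0.0013), the largest among the 33 genes. On library totals Sptssb also passed in SPF skin, at -1.07 (adjusted p 0.0011). Without SPF ethanol 3 its SPF change was -0.65 (adjusted p 0.028), and without GF MC903 4 it was -0.49 (adjusted p 0.022). Its counts were low, between 68 and 90 per library in GF ethanol skin. Sptssa was between 229.9 and 234 CPM in SPF ethanol skin and between 184 and 190.5 CPM in SPF MC903 skin. It fell there by 0.3 (SE 0.06, adjusted p 0.00062), and its GF change of 0.14 (SE 0.06, adjusted p 0.058) turned to -0.37 on library totals and -0.22 with the length trend removed. The difference of 0.44 (SE 0.09, adjusted p 0.0047) kept its call in every alternative run.

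Kdsr, the ketodihydrosphingosine reductase of the next step, fell with MC903 in SPF skin. It was at 72.4, 75.6 and 68.3 CPM with ethanol and at 27.6, 24 and 25.8 CPM with MC903 in SPF skin. In GF skin it was at 59.3, 61.8 and 59.6 CPM with ethanol and at 57.7, 52.6 and 51.1 CPM with MC903. The 3 SPF MC903 libraries were below the other 9 by a wide margin. Kdsr fell by 1.48 (SE 0.07, adjusted p 3.7e-09) in SPF skin, and its GF change was -0.16 (SE 0.07, adjusted p 0.064). The responses differed by 1.32 (SE 0.1, adjusted p 2.6e-05). The GF libraries of the treatments did not overlap, and the GF change moved with the processing: it was -0.67 (adjusted p 3.8e-06) on library totals, 0.23 (adjusted p 0.017) with the length trend removed, and -0.22 (adjusted p 0.034) without GF MC903 1. The difference was between 1.25 and 1.38 in all alternatives.

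Among the ceramide synthases, which differ in the acyl chains they attach, Cers3 rose and Cers4, Cers5 and Cers6 fell in both housings. Cers3, which serves the ultra-long chains of epidermal ceramides, was at 40.6, 45.8 and 46.4 CPM in SPF ethanol and at 110.3, 96.4 and 104 CPM in SPF MC903 skin. In GF skin Cers3 was at 41.7, 48.1 and 46.2 CPM with ethanol and at 72.3, 75.5 and 72.3 CPM with MC903. The ethanol groups overlapped, and the MC903 groups did not. Cers3 rose by 1.23 (SE 0.08, adjusted p 2.6e-08) and 0.7 (SE 0.08, adjusted p 5.7e-06), a difference of -0.53 (SE 0.11, adjusted p 0.0061). Cers4, which takes long and very long chains, was at 438, 561 and 456 CPM in SPF ethanol and at 175, 239 and 197 CPM in SPF MC903 skin. In GF skin Cers4 was at 427, 426 and 393 CPM with ethanol and at 263, 286 and 316 CPM with MC903. Both MC903 groups were below both ethanol groups, SPF lowest. Cers4 fell by 1.25 (SE 0.12, adjusted p 1.1e-06) and 0.53 (SE 0.12, adjusted p 0.0017), a difference of 0.73 (SE 0.17, adjusted p 0.012). The GF change was -0.31 (adjusted p 0.051) once the length trend was taken out. Cers5, a synthase of palmitoyl ceramides, was between 103 and 112 CPM with ethanol and between 77.9 and 99.2 CPM with MC903, and fell by 0.35 in SPF and 0.23 in GF skin. Cers6, of like specificity, was between 19.9 and 31.2 CPM throughout. Its falls of 0.43 and 0.36 became 0.17 (adjusted p 0.18) and 0.13 (adjusted p 0.33) after correction for the length trend, which turned their direction. The GF fall also lost its call under the replicate block (adjusted p 0.055) and, at -0.36 to -0.29 (adjusted p 0.054 to 0.096), without GF MC903 1, GF MC903 5, GF ethanol 1 or GF ethanol 5. Cers2, which makes very-long-chain ceramides in most tissues, was between 53.2 and 58.7 CPM in SPF skin. Its SPF change was not called, but on library totals it was -0.58 (adjusted p 6.5e-06). It fell from between 56.2 and 60.4 CPM to between 47.4 and 50.2 CPM in GF skin (log2 change -0.26, adjusted p 0.0031).

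**Figure D2:**
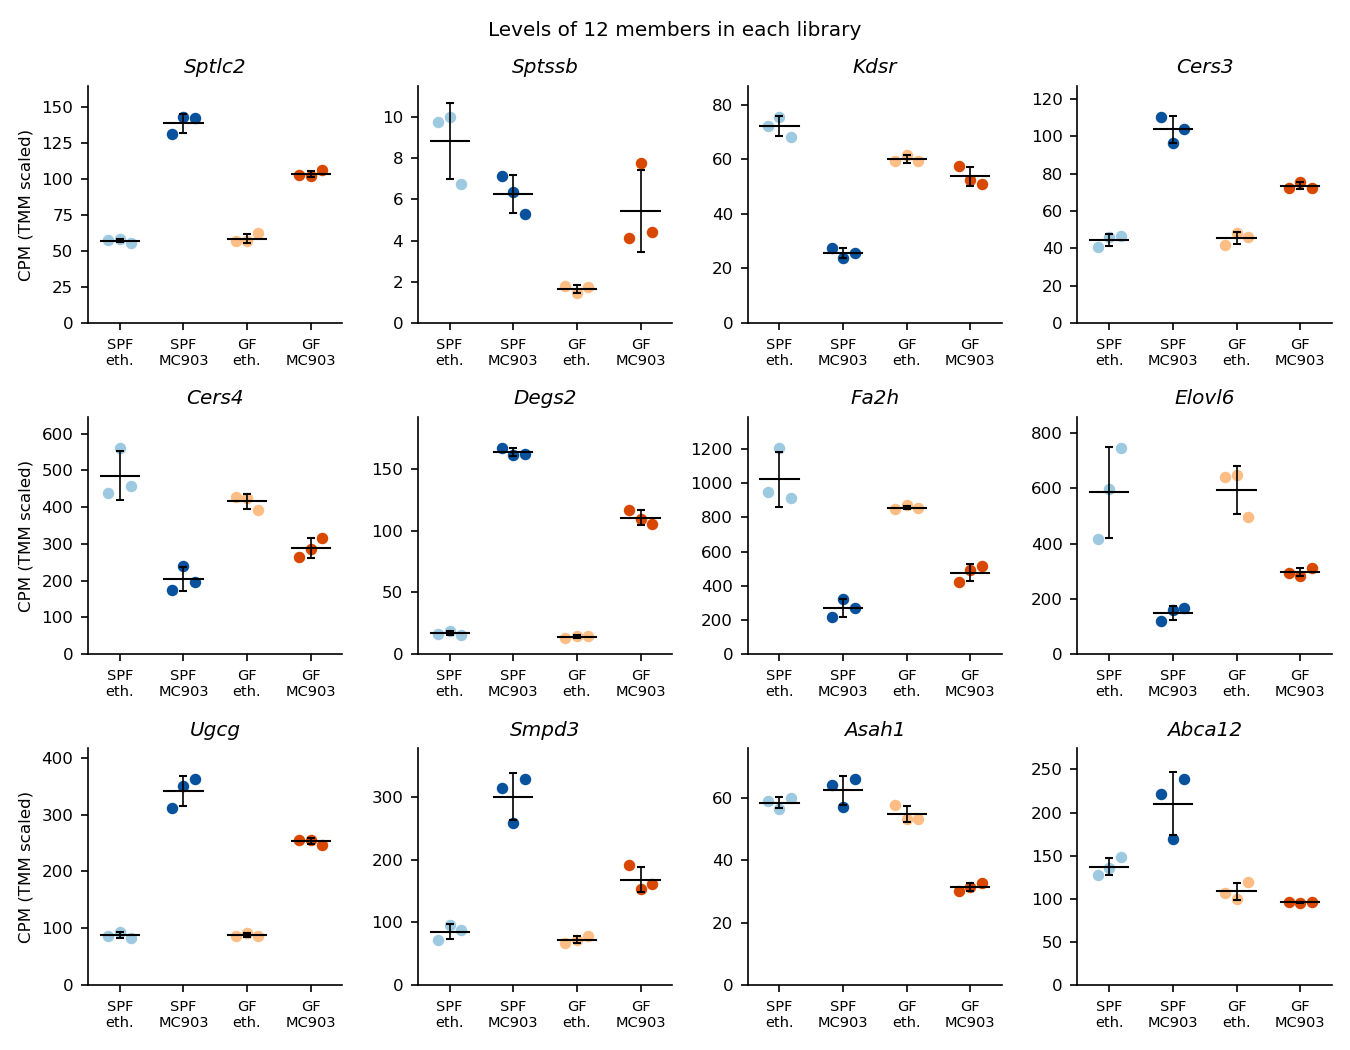
CPM after TMM scaling in each library for 12 of the genes, with eth. for ethanol. Points are libraries, long bars group means and error bars SD over 3 libraries. Kdsr is low only in the SPF MC903 group, Asah1 only in the GF MC903 group and Sptssb lowest in the GF ethanol group.

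Degs2 had the largest response to MC903 of the 33 genes in both housings, and the other desaturase, Degs1, a small one. Degs2 makes the hydroxylated sphingoid base of phytoceramides, which are abundant in epidermis. It was at 16.4, 18.8 and 15.8 CPM in SPF ethanol and at 167, 161 and 162 CPM in SPF MC903 skin. In GF skin Degs2 was at 12.6, 14.8 and 14.3 CPM with ethanol and at 117, 109 and 105 CPM with MC903. No library lay between the treatments, and the MC903 groups did not overlap. Degs2 rose by 3.26 (SE 0.09, adjusted p 5.1e-11) in SPF and 2.99 (SE 0.09, adjusted p 2.5e-10) in GF skin, and these responses did not differ past the threshold (-0.28, SE 0.11, adjusted p 0.12). On library totals the rises were 2.69 and 2.48. Exons of Evl, on the opposite strand, cover 10.8% of the exon bases of Degs2 in GENCODE, and Evl was at 15.3, 15.7, 17 and 15.5 CPM in SPF ethanol, SPF MC903, GF ethanol and GF MC903. Degs1, which introduces the double bond of sphingosine, was between 138 and 156 CPM with ethanol and between 171 and 239 CPM with MC903. It rose by 0.57 (adjusted p 2.3e-05) in GF skin, or 0.06 (adjusted p 0.44) on library totals, and by 0.33 (adjusted p 0.0015) in SPF skin, which turned to -0.25 (adjusted p 0.0043) on library totals.

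Fa2h, which hydroxylates fatty acids next to the carboxyl group and is active in mouse sebaceous glands as well as epidermis, fell. It was at 950.3, 1207 and 913 CPM in SPF ethanol and at 218, 323 and 269.6 CPM in SPF MC903 skin. In GF skin Fa2h was at 849, 870.1 and 855 CPM with ethanol and at 421, 494 and 514 CPM with MC903. The groups fell into the order of SPF ethanol, GF ethanol, GF MC903 and SPF MC903 with no overlap. Fa2h fell by 1.92 (SE 0.14, adjusted p 1e-07) in SPF and 0.85 (SE 0.14, adjusted p 0.00014) in GF skin, a difference of 1.07 (SE 0.19, adjusted p 0.0031). Per length, Fa2h had the highest level of the 33 genes in SPF ethanol skin, at 493 FPKM, and was at 87.4 FPKM with MC903.

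Of the fatty acid elongases, Elovl1 and Elovl7 rose and Elovl6 fell. Elovl1, which builds saturated very-long-chain acyl groups, was at 255, 289 and 283 CPM in SPF ethanol and at 574, 653 and 548 CPM in SPF MC903 skin. In GF skin Elovl1 was at 396, 436 and 396 CPM with ethanol and at 768, 674 and 752 CPM with MC903. GF libraries were above SPF libraries under each treatment. Elovl1 rose by 1.1 (SE 0.08, adjusted p 1.2e-07) and 0.84 (SE 0.08, adjusted p 2e-06), with a difference of -0.26 (adjusted p 0.15). Cdc20, on the opposite strand, covers 1.94% of its exon bases and also rose, by 2.18 and 2.32. Elovl7, another very-long-chain elongase, was at 144, 155 and 155 CPM in SPF ethanol and at 353, 351 and 367 CPM in SPF MC903 skin. In GF skin Elovl7 was at 113, 118 and 121 CPM with ethanol and at 263, 301 and 282 CPM with MC903. Here GF libraries were below SPF libraries under each treatment. Elovl7 rose by 1.24 (SE 0.06, adjusted p 3e-09) and 1.26 (SE 0.06, adjusted p 7.9e-09). Elovl6, which lengthens palmitate to stearate, was at 417, 596 and 746 CPM in SPF ethanol and at 121, 158 and 167 CPM in SPF MC903 skin. In GF skin Elovl6 was at 640.1, 648 and 495 CPM with ethanol and at 294, 283 and 311 CPM with MC903. The ethanol groups overlapped, and both MC903 groups lay below them, SPF lower. Elovl6 fell by 1.98 (SE 0.19, adjusted p 9.8e-07) and 1.01 (SE 0.18, adjusted p 0.00036), and the difference of 0.98 (SE 0.26, adjusted p 0.023) was 0.86 (adjusted p 0.056) without GF ethanol 5. Elovl4, which makes the ultra-long chains of acylceramides, was between 1001 and 1226 CPM in SPF skin without a call. On library totals its SPF change was -0.6 (adjusted p 7.6e-05). It rose by 0.3 (adjusted p 0.019) in GF skin, from between 849 and 946 CPM to between 1022 and 1264 CPM, which turned to -0.21 on library totals and was 0.25 to 0.2 (adjusted p 0.075 to 0.091) without GF ethanol 5 or GF MC903 4.

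Sebocyte markers moved beside Fa2h, Elovl6 and Cers4, and their part in these results was not tested. Of 12 markers, 5 rose and 6 fell in SPF skin, and 6 rose and 4 fell in GF skin. Far2, a fatty alcohol enzyme, fell by 2.44 and 1.14, Mgst1 by 1.46 and 0.71, Scd3, a desaturase, by 2.69 and 1.26, and Mc5r, a melanocortin receptor, by 3.5 and 2.25. Awat1 and Dgat2l6, acyltransferases of sebum lipids, rose by 1.32 each in SPF skin and by 1.24 and 1.53 in GF skin. The summed level of the list was 2645 to 2936 CPM in SPF ethanol, 8803 to 9286 in SPF MC903, 2381 to 2523 in GF ethanol and 5551 to 6136 in GF MC903. Fabp5, which keratinocytes also express, made up most of the MC903 sums, with mean levels of 7096 CPM in SPF and 3910 CPM in GF skin. The mean levels of the other 11 markers summed to 2255, 1959, 1928 and 1947 CPM in SPF ethanol, SPF MC903, GF ethanol and GF MC903.

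Ugcg, which attaches glucose to ceramide for storage in lamellar bodies, rose, and the sphingomyelin synthases fell. Ugcg was at 85.7, 93.6 and 83.6 CPM in SPF ethanol and at 311, 351 and 363 CPM in SPF MC903 skin. In GF skin Ugcg was at 85.5, 92.3 and 86.1 CPM with ethanol and at 256, 256 and 247 CPM with MC903. The ethanol libraries of both housings were alike, and the MC903 groups did not overlap. Ugcg rose by 1.96 (SE 0.07, adjusted p 2.9e-10) and 1.52 (SE 0.07, adjusted p 4.9e-09), a difference of -0.44 (SE 0.1, adjusted p 0.009). Sgms1, the Golgi sphingomyelin synthase, was at 56.8, 59.6 and 67.8 CPM in SPF ethanol and at 28, 21.2 and 24.5 CPM in SPF MC903 skin. In GF skin Sgms1 was at 65.1, 70.3 and 67.9 CPM with ethanol and at 33, 37.9 and 31.8 CPM with MC903. MC903 libraries were below ethanol libraries in both housings. Sgms1 fell by 1.32 (SE 0.11, adjusted p 2.5e-07) and 0.98 (SE 0.11, adjusted p 4.7e-06). Sgms2, the synthase at the plasma membrane, was between 11.7 and 16.1 CPM with ethanol and between 6.67 and 11.8 CPM with MC903. It fell by 0.51 (adjusted p 0.002) in SPF skin, which was 0 (adjusted p 0.98) with the length trend removed, and by 0.78 (adjusted p 1e-04) in GF skin, which was -0.35 there.

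Both sphingomyelinases among the 33 genes, Smpd3 and Smpd1, which turn sphingomyelin into ceramide, rose in both housings. Smpd3, the neutral enzyme, was at 71.8, 95.5 and 87.4 CPM in SPF ethanol and at 315, 258 and 329 CPM in SPF MC903 skin. In GF skin Smpd3 was at 67.6, 72.4 and 77.6 CPM with ethanol and at 191, 153 and 161 CPM with MC903. Every MC903 library was above every ethanol library, and SPF MC903 libraries were the highest. Smpd3 rose by 1.82 (SE 0.12, adjusted p 4.7e-08) and 1.21 (SE 0.12, adjusted p 2.4e-06). The difference of -0.61 (SE 0.17, adjusted p 0.029) lost its call under the replicate block (-0.62, adjusted p 0.07) and, at -0.61 to -0.5 (adjusted p 0.056 to 0.071), without any of GF MC903 4, GF MC903 5, GF ethanol 4, GF ethanol 5, SPF MC903 1, SPF MC903 3 or SPF ethanol 1. Prmt7, whose exons on the opposite strand cover 4.72% of those of Smpd3, rose by 0.69 and 0.6. Smpd1, the acid enzyme, was between 136 and 182 CPM with ethanol and between 240 and 299 CPM with MC903, and rose by 0.78 in SPF and 0.83 in GF skin (SE 0.08 in both).

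The ceramidases among the 33 genes, Asah1 and Acer1, which split ceramide, each passed the test in 1 housing. Asah1, the acid ceramidase, was at 58.9, 56.5 and 60.1 CPM in SPF ethanol and at 64, 57.2 and 66.1 CPM in SPF MC903 skin. In GF skin Asah1 was at 57.7, 53.2 and 53.3 CPM with ethanol and at 30.1, 31.4 and 32.6 CPM with MC903. The GF MC903 libraries stood below the other 9, whose range was narrow. Asah1 fell by 0.8 (SE 0.07, adjusted p 8e-07) in GF skin, and its SPF change was 0.09 (SE 0.07, adjusted p 0.25), or -0.48 (adjusted p 0.00012) on library totals. The difference was -0.9 (SE 0.1, adjusted p 0.00016). Acer1, the alkaline ceramidase of differentiated keratinocytes, was at 253, 275 and 317 CPM in SPF ethanol and at 189, 189.6 and 173 CPM in SPF MC903 skin. In GF skin Acer1 was at 392, 397 and 333 CPM with ethanol and at 358, 333 and 347 CPM with MC903. The GF groups overlapped and lay above both SPF groups. Acer1 fell by 0.61 (SE 0.09, adjusted p 4.3e-05) in SPF skin, and its GF change was -0.11 (SE 0.09, adjusted p 0.28), or -0.62 (adjusted p 2.7e-05) on library totals. The difference was 0.5 (SE 0.13, adjusted p 0.018). Psap, the precursor of the saposins that present lipids to lysosomal hydrolases, was between 791 and 875 CPM in SPF ethanol and between 652 and 691 CPM in SPF MC903 skin, a fall of 0.3 (adjusted p 0.0019). In GF skin Psap was between 942 and 1088 CPM with ethanol and between 1050 and 1139 CPM with MC903, a change of 0.12 (adjusted p 0.16) that turned to -0.39 (adjusted p 4.7e-05) on library totals and was 0.19 (adjusted p 0.027) without GF ethanol 4. The difference was 0.42 (SE 0.1, adjusted p 0.014).

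Acylceramide synthesis, the lipid envelope and lipid transport were covered by 7 genes. Of these, 6 rose in SPF skin (35% of all tested genes) and 5 in GF skin (33.4% of all). On library totals only Cyp4f39, Sdr9c7 and Ephx3 rose in SPF skin, and only Cyp4f39 in GF skin, where Abca12 fell. Slc27a4 fell in both housings on either scaling. Cyp4f39, the omega-hydroxylase of ultra-long fatty acids, was at 95, 111 and 103 CPM in SPF ethanol and at 215, 255 and 238 CPM in SPF MC903 skin. In GF skin Cyp4f39 was at 109.9, 126 and 116 CPM with ethanol and at 224, 204 and 232 CPM with MC903. The housings overlapped under both treatments. Cyp4f39 rose by 1.19 (SE 0.08, adjusted p 7e-08) and 0.91 (SE 0.08, adjusted p 1.2e-06). Pnpla1, the transacylase that adds linoleate, was at 57.1, 60.4 and 58.9 CPM in SPF ethanol and at 102, 89.4 and 99 CPM in SPF MC903 skin. In GF skin Pnpla1 was at 46.4, 48 and 52 CPM with ethanol and at 63.8, 67.1 and 63.3 CPM with MC903. GF libraries were below SPF libraries under each treatment. Pnpla1 rose by 0.72 (SE 0.07, adjusted p 8.9e-07) in SPF skin, or 0.15 (adjusted p 0.076) on library totals, and by 0.41 (SE 0.07, adjusted p 0.00017) in GF skin, which turned to -0.1 (adjusted p 0.2) on library totals. The difference of -0.31 (adjusted p 0.043) lost its call on library totals, with no filter on low counts, under the replicate block (adjusted p 0.095) and, at -0.34 to -0.27 (adjusted p 0.052 to 0.11), without any single library but SPF MC903 2 or GF ethanol 1. Abhd5, the activator of Pnpla1, was between 101 and 124 CPM with ethanol and between 137 and 161 CPM with MC903. Its rises of 0.42 in SPF and 0.47 in GF skin turned to -0.16 (adjusted p 0.052) and -0.05 (adjusted p 0.57) on library totals. An antisense gene, A730085K08Rik, covers 16% of the exon bases of Abhd5. That gene was at 0.496, 0.531, 0.492 and 0.781 CPM in SPF ethanol, SPF MC903, GF ethanol and GF MC903. Genes on the opposite strand also cover 13.3% of the exon bases of Pnpla1 and 14.1% of those of Acer1.

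Sdr9c7 and Ephx3 modify the linoleate of acylceramides before they are bound to the envelope. Sdr9c7, the dehydrogenase, was at 71.4, 81.8 and 88.9 CPM in SPF ethanol and at 159, 126 and 161 CPM in SPF MC903 skin. In GF skin Sdr9c7 was at 72.7, 75.4 and 74.5 CPM with ethanol and at 109, 97.9 and 98.3 CPM with MC903. The ethanol groups overlapped and the MC903 groups did not. Sdr9c7 rose by 0.88 (SE 0.1, adjusted p 4.9e-06) in SPF skin, or 0.31 on library totals, and by 0.46 (SE 0.1, adjusted p 0.0014) in GF skin, which turned to -0.05 (adjusted p 0.64) on library totals. Ephx3, the epoxide hydrolase, was at 30.4, 29 and 35.6 CPM in SPF ethanol and at 64.9, 54.9 and 56.2 CPM in SPF MC903 skin. In GF skin Ephx3 was at 42.7, 38.9 and 40.1 CPM with ethanol and at 52.8, 48.9 and 51.5 CPM with MC903. GF libraries were above SPF libraries with ethanol and below them with MC903, where the test was not passed (-0.2, adjusted p 0.096). Ephx3 rose by 0.89 (SE 0.09, adjusted p 1.9e-06) in SPF skin, or 0.31 on library totals, and by 0.33 (SE 0.09, adjusted p 0.0059) in GF skin, which turned to -0.18 (adjusted p 0.11) on library totals. The difference was -0.56 (SE 0.13, adjusted p 0.012).

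Abca12, the transporter that loads lipids into lamellar bodies, differed in response between the housings. It was at 128, 136 and 148 CPM in SPF ethanol and at 222, 169 and 239 CPM in SPF MC903 skin. In GF skin Abca12 was at 107, 100.1 and 119.6 CPM with ethanol and at 96, 94.8 and 96.3 CPM with MC903. SPF MC903 libraries were the highest, and the GF MC903 libraries the lowest, with a narrow range. Abca12 rose by 0.61 (SE 0.11, adjusted p 0.00028) in SPF skin, or 0.04 (adjusted p 0.77) on library totals. Its GF change was -0.19 (SE 0.11, adjusted p 0.15), -0.7 (adjusted p 0.00019) on library totals, 0.34 (adjusted p 0.0025) with the length trend removed and -0.19 (adjusted p 0.04) without SPF MC903 2. The difference was -0.8 (SE 0.16, adjusted p 0.0049) and lay between -0.94 and -0.7 in all alternatives. Slc27a4, a fatty acid transport protein with acyl-CoA synthetase activity, was at 657, 786 and 699 CPM in SPF ethanol and at 361, 441 and 421 CPM in SPF MC903 skin. In GF skin Slc27a4 was at 581, 665 and 642 CPM with ethanol and at 453, 481 and 521 CPM with MC903. The MC903 libraries of both housings were below the ethanol libraries. Slc27a4 fell by 0.81 (SE 0.09, adjusted p 5.8e-06) and 0.38 (SE 0.09, adjusted p 0.0033), and after correction for the length trend the GF change was -0.11 (adjusted p 0.36). The difference of 0.43 (adjusted p 0.042) lost its call with the length trend removed, with no filter on low counts, with RLE size factors and, at 0.35 to 0.47 (adjusted p 0.05 to 0.099), without any single library but SPF ethanol 1, SPF MC903 2 or GF MC903 1.

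Markers of differentiated keratinocytes, the cells that make these lipids, moved with the same treatment. Of 11 tested, 7 rose and 3 fell in SPF skin, and 7 rose and 2 fell in GF skin. Their summed level was 21232 to 24104 CPM in SPF ethanol, 36728 to 43688 in SPF MC903, 23260 to 26464 in GF ethanol and 45040 to 49149 in GF MC903. In that order, Krt10 had means of 12243, 8709, 13054 and 20795 CPM of these, and Krt1 of 1644, 11644, 1878 and 6212 CPM. With MC903, 3 of the 11 markers were higher in GF than in SPF skin and 4 were lower. Of 8 markers of basal keratinocytes, 3 rose and 4 fell in SPF skin, and 2 rose and 3 fell in GF skin. They summed to 12202 to 12727 CPM, 29165 to 33190, 13997 to 15806 and 31182 to 31548 in the same order, and Krt14 had means of 4222, 24020, 5306 and 19869 CPM of these. Krt15, Col17a1 and Dst fell in both housings. Fibroblast markers, of which 7 of 8 fell in each housing, summed to 10078 to 11530, 5254 to 6678, 8084 to 9778 and 4904 to 6173 CPM. Of 10 hair follicle markers, 5 rose and 1 fell in SPF skin, and 3 rose and 1 fell in GF skin. They summed to 30.7 to 34.8, 2325 to 3817, 36.9 to 47.5 and 1126 to 1143 CPM, of which Tchh had means of 10.9, 2719, 9.66 and 1018 CPM. Skeletal muscle markers summed to 1698 to 1980, 965 to 1007, 2251 to 2518 and 1446 to 1474 CPM. Of 10 Schwann cell and myelin markers, 9 fell in SPF skin and 10 in GF skin. They summed to 689 to 795, 436 to 499.7, 825 to 859.7 and 480.4 to 520.4 CPM. The part of these cell types in the changes of the 33 genes was not tested.

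With ethanol, GF skin was higher for 4 of 33 genes (11.6% of all tested genes) and lower for 6 (10.3% of all). Elovl1 was higher by 0.57 (adjusted p 0.0015), Acer1 by 0.41 (adjusted p 0.0088), Ephx3 by 0.36 (adjusted p 0.016) and Psap by 0.29 (adjusted p 0.013). Sptssb was lower, at -2.4 (SE 0.25, adjusted p 0.00032), the largest housing difference of the group. Elovl7 was lower at -0.36 (adjusted p 0.0028), Elovl4 at -0.31 (adjusted p 0.048), Degs2 at -0.28 (adjusted p 0.029), Pnpla1 at -0.27 (adjusted p 0.016) and Kdsr at -0.26 (adjusted p 0.025). Except for Sptssb and Elovl7, each of the lower calls was lost without GF ethanol 1 and also without SPF ethanol 2, which left 2. Abca12, at -0.33 (adjusted p 0.05), passed under several alternatives, DESeq2 (adjusted p 0.023) and the fit without GF ethanol 5 (adjusted p 0.043) among them. With the length trend taken out, Kdsr was at -0.1 (adjusted p 0.39), Pnpla1 at -0.15 (adjusted p 0.12) and Elovl4 at -0.29 (adjusted p 0.073). Elovl4 was also lost with no filter on low counts (adjusted p 0.056) and RLE size factors (adjusted p 0.061), and Degs2 in the fit of only the groups compared (adjusted p 0.064). Without GF ethanol 4, 3 were lower and Psap was at 0.22 (adjusted p 0.065). Ephx3 was at 0.3 to 0.33 (adjusted p 0.054 to 0.063) without GF ethanol 1, SPF ethanol 1 or SPF ethanol 2. Kdsr, at -0.29 to -0.22 (adjusted p 0.061 to 0.091), was also lost without GF ethanol 4, GF ethanol 5 or SPF ethanol 1. The call for Elovl4, at -0.34 to -0.24 (adjusted p 0.053 to 0.16), was also lost without GF ethanol 4, GF ethanol 5, SPF ethanol 3, SPF MC903 2 or GF MC903 5. Degs2 was at -0.22 and -0.2 (adjusted p 0.11) and Pnpla1 at -0.27 to -0.23 (adjusted p 0.056 to 0.073) in their lost fits.

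With MC903, GF skin was higher for 12 of 33 genes (20.8% of all tested) and lower for 13 (20.9% of all). The higher genes were led by Kdsr at 1.06 (SE 0.07, adjusted p 1.4e-06), Elovl6 at 1 (SE 0.18, adjusted p 0.001), Acer1 at 0.91 (SE 0.09, adjusted p 1.3e-05), Fa2h at 0.82 (SE 0.14, adjusted p 0.00054) and Psap at 0.71 (SE 0.07, adjusted p 1.4e-05). Cers4, Sgms1, Sptssa, Elovl1, Degs1, Slc27a4 and Cers5 were higher by between 0.22 and 0.5. After correction for the length trend, Elovl1 was at 0.17 (adjusted p 0.079), Cers5 at 0.11 (adjusted p 0.096) and Degs1 at 0.17 (adjusted p 0.093), none of them called. The lower genes were led by Abca12 at -1.13 (SE 0.11, adjusted p 1.3e-05), Asah1 at -0.99 (SE 0.07, adjusted p 1.6e-06) and Smpd3 at -0.84 (SE 0.12, adjusted p 0.00019). Pnpla1 was at -0.58, Degs2 at -0.56, Sdr9c7 at -0.55, Cers3 and Sgms2 at -0.5, Ugcg at -0.43, Sptlc2 at -0.42 and Elovl7 at -0.34. Sptlc3 (-0.24) and Cers2 (-0.18) were the smallest of the lower calls. Sptssb, far lower in GF skin with ethanol, differed by -0.21 (adjusted p 0.52) with MC903. Cers2, Sptlc3 and Slc27a4 also lost their calls in the fit of only the groups compared (adjusted p 0.077, 0.061 and 0.063), Cers2 and Slc27a4 with no filter on low counts (0.051 and 0.055), Cers2 on library totals (0.07), and Slc27a4 under DESeq2 (0.054) and RLE size factors (0.079). With a library left out, Cers2 (adjusted p up to 0.15) lost its call without GF MC903 1, GF MC903 5, GF ethanol 1, SPF MC903 1, SPF MC903 3 or SPF ethanol 2, and Sptlc3 (up to 0.093) without GF MC903 1, GF MC903 5 or SPF MC903 3. Slc27a4 (up to 0.18) lost it without GF MC903 4, GF MC903 5, GF ethanol 4, GF ethanol 5, SPF MC903 1, SPF MC903 3 or SPF ethanol 3, and Degs1 (up to 0.055) without GF MC903 4 or SPF MC903 3.

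**Figure D3:**
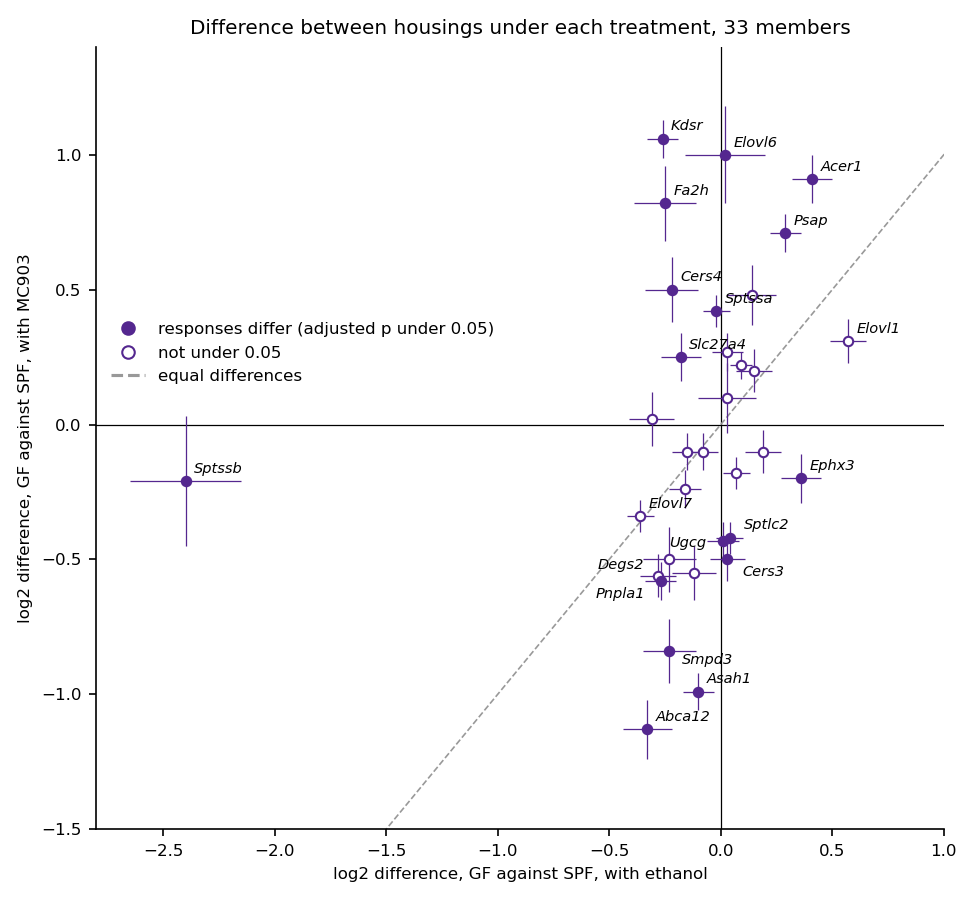
Log2 difference between GF and SPF skin with ethanol (horizontal) against that with MC903 (vertical) for the 33 genes, with SE bars. Filled points are genes whose responses to MC903 differed between housings, and the dashed line marks equal differences under both treatments. Kdsr, Elovl6, Fa2h and Acer1 lie at the top, Abca12, Asah1 and Smpd3 at the bottom, and Sptssb alone at the left, at -2.4 with ethanol.

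Shares within families of related enzymes were computed per library from FPKM, which corrects for gene length, and are given without a test. Sptlc2 made up 29.8% ± 0.489 (SD, n = 3) of the summed FPKM of Sptlc2 and Sptlc3 in SPF ethanol and 53.1% ± 1.4 in SPF MC903 skin. In GF skin its share was 32.8% ± 2.06 with ethanol and 50% ± 1.92 with MC903. Per length, Sptlc3 held the larger share in all ethanol libraries, but on the CPM scale, with no length correction, the larger share was that of Sptlc2 (50.8% in SPF ethanol and 54.2% in GF ethanol). Cers4 held the largest share among Cers2 to Cers6 in every group, at 57.9% ± 3.14 in SPF ethanol, 35.2% ± 3.92 in SPF MC903, 52.9% ± 0.845 in GF ethanol and 45% ± 1.7 in GF MC903 skin. The share of Cers3 went from 5.99% ± 0.425 to 20.4% ± 2.39 in SPF and from 6.52% ± 0.555 to 13% ± 0.748 in GF skin. The lowest MC903 library of either housing was above every ethanol library. Sptssb was a minor part of the small subunits in every group, at 2.86% ± 0.571 in SPF ethanol, 2.51% ± 0.33 in SPF MC903, 0.561% ± 0.0805 in GF ethanol and 1.63% ± 0.466 in GF MC903. Sgms1 held between 77.6 and 90.8% of the sphingomyelin synthases in all libraries.

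**Figure D4:**
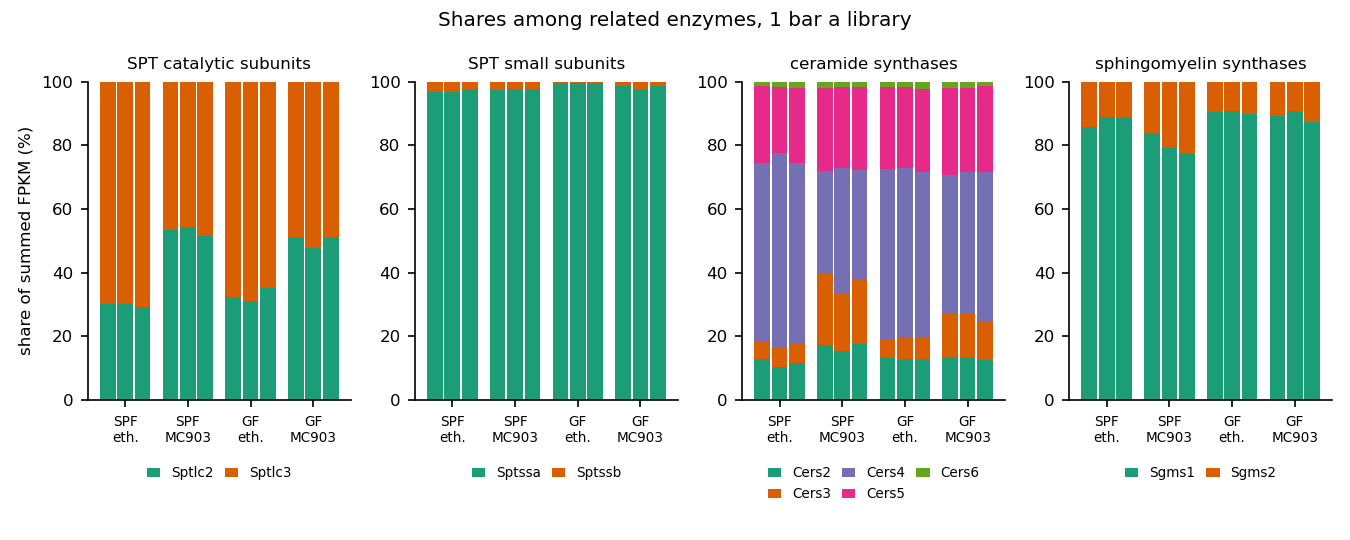
Share of each gene in the summed FPKM of its family, in percent, with 1 bar for each library and eth. for ethanol, and SPT for serine palmitoyltransferase. The part of Sptlc2 is larger with MC903 than with ethanol in both housings, and that of Cers3 is largest in the 3 SPF MC903 libraries.

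A list of 90 other genes of the pathway was counted in the same fits, 88 of which were tested. In SPF skin 31 rose (35% of all genes tested) and 43 fell (38.8% of all), with a median log2 change of -0.22. In GF skin 27 rose (33.4% of all) and 33 fell (35.1% of all), with a median of -0.1. The responses differed for 31, the GF response being higher for 13 (7.75% of all) and lower for 18 (9.26% of all). Those past the test at 4-fold or more in either response are named. Pla2g3, a secreted phospholipase, went from 4.72 ± 1.1 to 50.3 ± 10 CPM in SPF (log2 change 3.41, adjusted p 4.4e-09) and from 5.77 ± 0.458 to 35 ± 1.9 CPM in GF skin (2.6, adjusted p 7.2e-08). Pla2g4e, a cytosolic one, went from 26.9 ± 0.478 to 205 ± 14.7 CPM and from 15.7 ± 1.46 to 115 ± 2.91 CPM, rises of 2.93 and 2.87. Sult2b1, which sulfates cholesterol, went from 44.5 ± 1.8 to 308 ± 37.2 CPM and from 61 ± 8.88 to 256 ± 8.58 CPM, rises of 2.79 and 2.07. Gba2, a non-lysosomal glucosylceramidase, rose by 2.33 and 1.46, and Tgm1, the transglutaminase of the envelope, by 2.02 and 1.43.

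Of 17 transcription factors of barrier lipid genes, 5 rose and 7 fell in SPF skin and 3 rose and 7 fell in GF skin. Over all genes tested, 35% rose and 38.8% fell in SPF skin, and 33.4% rose and 35.1% fell in GF skin. Ppara, a lipid-sensing nuclear receptor, went from 23.5 ± 0.721 to 2.88 ± 0.185 CPM in SPF and from 18.6 ± 1 to 6.11 ± 0.459 CPM in GF skin. It fell by 3.02 (adjusted p 1.1e-10) and 1.61 (adjusted p 1.9e-08), a difference of 1.42 (adjusted p 4.9e-05). Gata3, a factor of epidermal differentiation that T cells also express, went from 97.9 ± 8.83 to 24.2 ± 4.86 CPM and from 117 ± 5.95 to 77.4 ± 5.61 CPM. It fell by 2.01 (adjusted p 2.3e-08) and 0.6 (adjusted p 8e-04), a difference of 1.42 (adjusted p 3e-04). Both fell less in GF skin, with SPF MC903 the lowest group. Cebpb varied widely within groups, at 1.86 ± 0.701, 64.7 ± 49.7, 12.3 ± 17.5 and 51.3 ± 37.3 CPM in SPF ethanol, SPF MC903, GF ethanol and GF MC903, and passed the test in SPF skin (5.12, SE 1.25, adjusted p 0.0025) but not in GF skin (2.06, adjusted p 0.1). Cers1, a ceramide synthase chiefly of brain and muscle, had 32 counts over the SPF ethanol and 73 over the GF ethanol libraries, and 0 in each MC903 group, where a count of 0 allows up to 3.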

How the data were processed

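Total RNA of ear skin was sequenced in 12 libraries. HISAT2 2.1.0, StringTie 1.3.4d, bcl2fastq 2.20.0 and Trimmomatic are named in the submitters' processing notes, as is the build mm10. The annotation and any use of strand were not given in the sources used here. The deposited table gives, for each gene in each library, FPKM beside the estimated count. Of 35 low values checked, 94.3% equalled a count rounded up (tolerance 0.01), so low counts are slightly raised. Genes were filtered with filterByExpr (minimum count 10, minimum total 15) and fitted over all libraries by group with edgeR 4.0.16 in R 4.3.3 (TMM scaling, quasi-likelihood test), with Benjamini-Hochberg adjustment over 16466 genes in each of 5 comparisons. limma 3.58.1 (voom) and DESeq2 1.42.0 served as alternatives, beside other scalings, filters, a correction for gene length, a replicate block and each library left out. The script was tested on simulated data. Shares came from FPKM.

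The members and lists were chosen with earlier results of these data known. Values of every library were given for members past the test with at least a 2-fold change in either response, or past the test in the difference or a housing comparison, limited to the 20 with the lowest adjusted p. Sptssb was added after its values were seen. Other pathway genes were named at a log2 change of at least 2 in size. Exon overlaps came from GENCODE. Sts and Flg were not analysed here.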

Additional observations from a re-analysis of the deposited data

Results flagged for a closer look

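The response to MC903 differed between the housings, by the test of the difference itself (edgeR, GF minus SPF, log2), for 17 of the 33 genes. The GF response was higher in 9 (7.75% of all genes tested) and lower in 8 (9.26% of all). It also differed for 6 of the other pathway genes named, which were picked for a response of at least 4-fold in these data. Of all 88 other pathway genes tested, the GF response was higher for 13 and lower for 18. Among genes of the first steps, the difference was -0.46 for Sptlc2, 0.44 for Sptssa, 2.2 for Sptssb and 1.32 for Kdsr. Among ceramide synthases it was -0.53 for Cers3 and 0.73 for Cers4, and among enzymes of the acyl chain 1.07 for Fa2h and 0.98 for Elovl6. For storage and hydrolysis it was -0.44 for Ugcg, -0.61 for Smpd3, 0.42 for Psap, -0.9 for Asah1 and 0.5 for Acer1. For acylceramide synthesis and transport it was 0.43 for Slc27a4, -0.31 for Pnpla1, -0.56 for Ephx3 and -0.8 for Abca12. Of the other pathway genes, it was -0.86 for Gba2, -0.59 for Tgm1, -0.73 for Sult2b1, -0.81 for Pla2g3, 1.42 for Ppara and 1.42 for Gata3. Among the 33 genes, Pnpla1, Slc27a4, Smpd3 and Elovl6 lost this call in 13, 12, 8 and 1 of the alternative runs.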

How the results depend on the processing

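Of 108 calls of the 33 genes over the 5 comparisons, 74 were kept in every alternative run and 34 were lost in at least 1: 14 on library totals, 17 with a library left out, 13 with the length trend removed and 3 under the replicate block. The cause was not tested. On library totals, 3 genes rose at least 2-fold in SPF skin and 3 in GF skin, 10 fell at least 2-fold in SPF skin and 6 in GF skin, and 10 rose in GF skin. The count of genes at least 2-fold lower in GF skin was 0 under DESeq2, limma voom, RLE size factors, the length correction and the replicate block, and 0 to 1 with a library left out (0 without GF ethanol 4). With ethanol, 3 genes were lower in GF skin with the length trend removed, and 2 to 7 with a library left out.

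On library totals the direction turned for Abhd5 (SPF -0.16, GF -0.05), Degs1 (SPF -0.25), Asah1 (SPF -0.48), Elovl4 (GF -0.21), Ephx3 (GF -0.18), Pnpla1 (GF -0.1), Sdr9c7 (GF -0.05), Psap (GF -0.39) and Sptssa (GF -0.37). With the length trend removed it turned for Cers6 (SPF 0.17, GF 0.13), Abca12 (GF 0.34), Kdsr (GF 0.23) and Sptssa (GF -0.22). The SPF change of Sgms2 then came to 0 (adjusted p 0.98). With CPM in place of FPKM, in the order SPF ethanol, SPF MC903, GF ethanol and GF MC903, the share was 50.8, 73.4, 54.2 and 70.8% for Sptlc2, 67.5, 43.7, 63.1 and 54.6% for Cers4, and 3.67, 3.22, 0.728 and 2.1% for Sptssb, and that of Cers3 was 14% in GF MC903. Sptlc2 then held the larger share with ethanol, where FPKM gave it to Sptlc3.

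Deviations from the group mean correlated at 0.01, 0.07 and 0.14 between same-numbered libraries in SPF skin and at 0.02, -0.02 and 0 in GF skin. Between differently numbered libraries the correlations lay between -0.13 and 0.06. With 3 libraries a group, these values cannot tell whether same-numbered libraries share a mouse. The replicate block took the calls of Smpd3 (-0.62, adjusted p 0.07) and Pnpla1 (adjusted p 0.095) in the difference and of Cers6 (adjusted p 0.055) in GF skin. In the SPF and GF responses the SE was largest for Sptssb (0.23 and 0.25), a gene with low counts. Elovl6 (0.19 and 0.18) and Fa2h (0.14 in both), which had far higher levels, came next.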
